A study of Mus musculus with 24 samples.

Results

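Ribosome biogenesis and nucleolar genes were followed through 24 RNA-seq libraries of cultured mouse eosinophils, raised from marrow cells. The members were 36 genes given by symbol, covering RNA polymerase I, the small nucleolar ribonucleoproteins (snoRNPs), rRNA processing factors of both ribosomal subunits and abundant nucleolar proteins. They were listed by function, although earlier results of these data were known when the list was made. All 36 were found among the 25746 genes counted, and all 36 passed the low-count filter that left 11885 genes for testing. The libraries fell into 8 groups of 3, all from C57BL/6 cells that grew in SCF and FLT3-Ligand (100 ng/ml of each) up to day 4 and in IL-5 (10 ng/ml) afterwards. On day 13 the cultures were cleared of dead cells, and the overnight treatment then took place with IL-5 present in every group, controls included. Wild-type cells were left untreated or received GM-CSF (20 ng/ml), IL-10 or both cytokines. Cells labelled Csf2ra-/- and cells labelled Irf5-/- were left untreated or received GM-CSF. Csf2ra encodes the GM-CSF-binding receptor chain and Irf5 a transcription factor. The IL-10 dose and the design of the knockout alleles are not stated in the sources used here, and no surface-marker sort is named in the labels.

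Ribosomes are assembled mainly in the nucleolus. RNA polymerase I transcribes the rRNA precursor there, box C/D and box H/ACA snoRNPs guide its methylation and pseudouridylation, and separate sets of processing factors cut, fold and package the small and large subunits before export. The genes for these factors tend to be raised in growing and dividing cells and are well known targets of the transcription factor MYC, while mature granulocytes are known for small nucleoli and little ribosome production.

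Total counts ranged from 6222979 to 18709153 per library. The eosinophil granule genes Prg2 and Epx were high in all 24 libraries, at 39139 to 65228 and 13513 to 20766 CPM (read counts relative to each library's TMM-scaled size, the unit of all levels below). Csf2ra itself ranged from 28.5 to 39.8 CPM in the 6 Csf2ra-/- libraries, below the 41.8 to 83.8 CPM of the rest. Irf5 went against its label, with 1394 to 1999 CPM in the 6 libraries labelled Irf5-/- and 28.3 to 94.3 CPM in the others, so these are called the libraries labelled Irf5-/- throughout. Replicate numbers were assigned in accession order and serve only as names. The labels do not say that replicates came from separate animals or cultures, so p-values measure only the spread between these libraries.

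Libraries within a group were not alike in a feature that the labels do not give. The sum of 4 genes on the Y chromosome (Ddx3y, Eif2s3y, Kdm5d and Uty) was above 100 CPM in 14 libraries (148 to 185 CPM) and below it in 10 (12.1 to 60.9 CPM). All 6 libraries labelled Csf2ra-/- were above. In wild type, replicate 1 of the untreated group, replicates 1 and 2 of GM-CSF, replicate 3 of IL-10 and replicates 1 and 3 of both cytokines were above, and so was replicate 1 of each group labelled Irf5-/-. The members moved with this split in wild type, as given below, so the member median of each comparison is also given within a class of libraries where both groups have some; such fits can hold 1 library a group, which is then assumed to vary like the others. The threshold of 100 CPM was chosen after the sums had been seen. Csf2ra-/- untreated replicate 1 stood apart in another way, with the highest sum over 79 ribosomal protein genes (75110 CPM) and the lowest scaling factor (0.939) of the 24 libraries.

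Per kilobase of exon, the most abundant member was Npm1, encoding the nucleolar chaperone nucleophosmin, at 140.0 CPM per kb over all libraries. It was followed by Ncl (nucleolin) at 46.0, Pes1 (a large-subunit processing factor) at 35.7, Nhp2 (a box H/ACA snoRNP protein) at 31.3 and Noc2l (a large-subunit assembly factor) at 26.5 CPM per kb. The lowest was Utp20, a component of the small-subunit processome, at 1.37 CPM per kb, below Polr1a at 2.08 and Polr1b at 2.19, which encode the 2 largest subunits of RNA polymerase I, Wdr12 at 2.21 and Noc3l at 2.25. The ranges over libraries of these 5 lowest genes overlapped one another (0.696 to 3.35 CPM per kb), and those of Npm1 (109 to 183) and Ncl (39.5 to 59.0) did not. The length used joins the exons of all annotated transcripts of a gene, 2665 bases for Npm1, 10188 for Ncl and 11955 for Wdr12. Which transcripts these cells use was not examined, so the order depends on this length. Before division by length, Ncl (468 CPM) lay above Npm1 (373 CPM).

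Several members are themselves host genes of small nucleolar RNAs, among them Nop56 and Nop58, whose proteins bind the box C/D class. In the GENCODE annotation, 7 of the 36 members (19.4%) contain 21 small nucleolar RNA (snoRNA) genes on their own strand, and 215 of 11871 tested genes (1.81%) contain one. No count for these snoRNAs was given in the tables, and the libraries were made from polyadenylated RNA. Of the 21 sequences, 7 in 4 host genes have both a C box (TGATGA) and a D box (CTGA) within 15 bases of their ends, the pair that Nop56, Nop58 and Fbl assemble on. Only these exact letters lying wholly within those 15 bases were counted. Boxes with other letters or further in were missed, such as the TGATGA of Snord69, so the remaining sequences are not shown to lack them. One intronic example per host is shown, 5′ to 3′ from GENCODE release 21, with both boxes in capitals. Snord110 lies in Nop56 (chr2:130275506-130275573, GRCm38, plus strand), Snord11 in Nop58 (chr1:59704790-59704873, plus strand), Snord82 in Ncl (chr1:86356261-86356330, minus strand) and Snord92 in Wdr43 (chr17:71631281-71631365, plus strand).
Snord110: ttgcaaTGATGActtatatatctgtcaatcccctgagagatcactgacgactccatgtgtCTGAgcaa
Snord11: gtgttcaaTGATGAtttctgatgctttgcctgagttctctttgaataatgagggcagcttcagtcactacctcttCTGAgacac
Snord82: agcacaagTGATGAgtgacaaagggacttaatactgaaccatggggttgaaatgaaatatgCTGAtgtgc
Snord92: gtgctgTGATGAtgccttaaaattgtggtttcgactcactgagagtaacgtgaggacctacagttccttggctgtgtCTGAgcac

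RefSeq promoter sequences (GRCm38.p6) were at hand for 31 of the 36 members, and not for Fbl, Npm1, Bop1, Rrp12 and Rrs1. In the 250 bases before the start, the E-box CACGTG, the letters that MYC with its partner MAX is known to bind, was found in 1 of the 31 (3.23%), in 911 of 9187 tested genes with an entry (9.92%) and in 6.86% of all 27025 entries. The core of ETS factor sites, CGGAAG on either strand, was found in 14 of the 31 (45.2%), in 2754 of the 9187 tested genes and in 15.3% of all entries. Windows of the member with the E-box and of 4 members called in the comparison of genotypes below are shown, 5′ to 3′ along the gene, with the motif or its reverse complement CTTCCG in capitals. They lie at chr6:125131811-125131840 (plus strand) for Nop2, chr3:129831422-129831451 (minus strand) for Gar1, chr11:51619739-51619768 (plus strand) for Nhp2, chr19:46075822-46075846 (plus strand) for Nolc1 and chr1:60098171-60098200 (minus strand) for Wdr12. Members not called in that comparison, such as Ddx21, Heatr1 and Utp4, also hold CGGAAG or its reverse complement. A match of letters does not show binding.
Nop2 CACGTG window: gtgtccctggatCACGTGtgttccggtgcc
Gar1 CGGAAG window: cgcgccgccacaCTTCCGgaaacgtcgcgt
Nhp2 CGGAAG window: cacttgaaaaccCGGAAGtgatgtcggagg
Nolc1 CGGAAG window: cgcgtgtgggacCGGAAGcaacttc
Wdr12 CGGAAG window: tcgcccagttccCTTCCGactcgttctcct

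Taken as a mean of log2 CPM over the 36 genes, the module was lowest in untreated wild-type cells, at 4.998, 4.62 and 4.70 in replicates 1 to 3, and close by with IL-10 alone, at 4.75, 4.72 and 5.002. GM-CSF gave 5.22, 5.12 and 4.97 and both cytokines 5.24, 4.93 and 5.17 in wild type. Libraries with and without GM-CSF overlapped, since the highest untreated and IL-10 libraries lay above the lowest GM-CSF library. Csf2ra-/- cells were at 5.39, 5.20 and 4.95 untreated and 5.30, 5.24 and 4.91 with GM-CSF, the widest spread within a group. The libraries labelled Irf5-/- were the tightest, at 5.06, 5.01 and 5.01 untreated and 5.12, 5.14 and 5.17 with GM-CSF, and these 2 groups did not overlap. In bulk RNA, fewer cells that express these genes and less of their RNA per cell cannot be told apart.

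**Figure D1:**
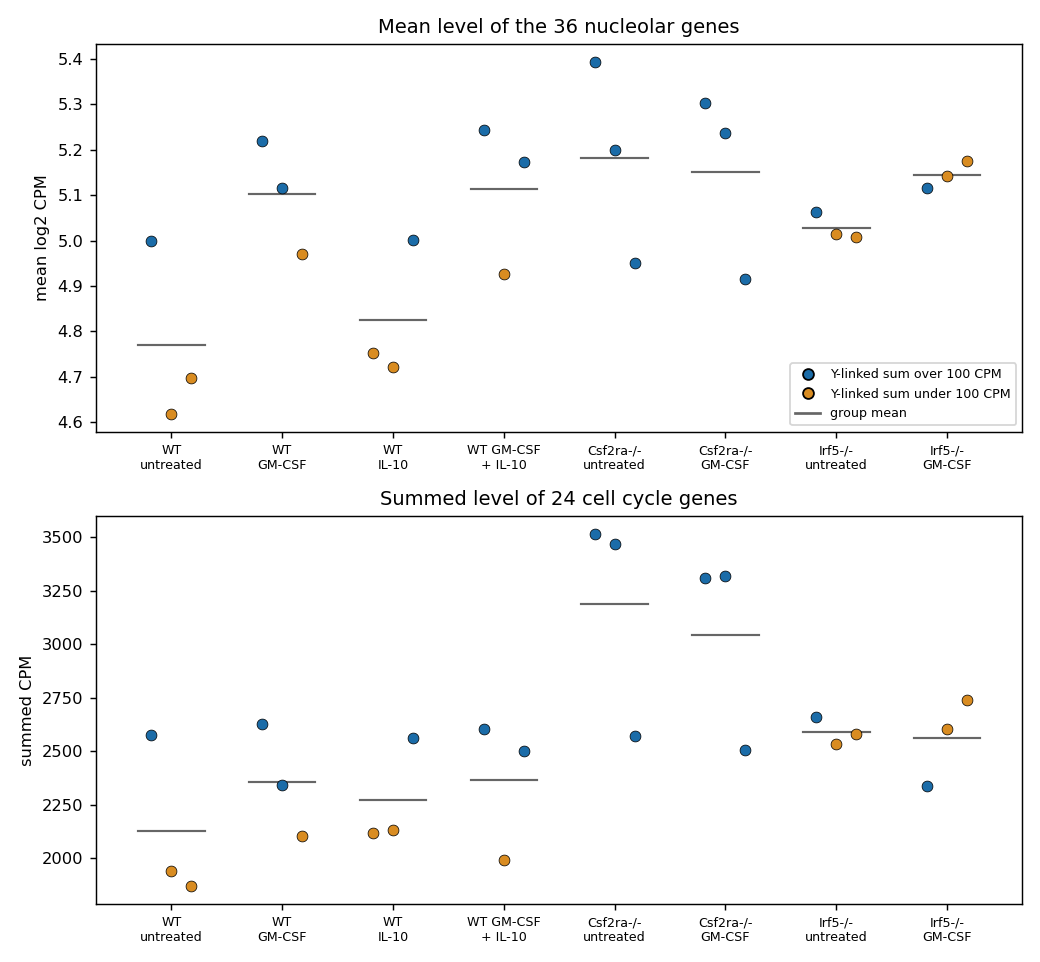
Mean log2 CPM of the 36 members (upper panel) and summed CPM of 24 cell cycle genes (lower panel) per library, by group; each point is 1 library, the bars are group means, and the colours mark a Y-linked sum over or under 100 CPM. In each of the 4 wild-type groups the libraries over 100 CPM lie above those under it in both panels.

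Within wild type the members also differed with the Y-linked sum. In all 4 wild-type groups the libraries over 100 CPM had a higher member mean than those under it, such as 4.998 against 4.62 and 4.70 in untreated cells. Over minus under, the median member differed by 0.32 on the log2 scale with 33 of 36 members positive, while the median tested gene differed by 0.00 with 50.2% positive. The summed level of 24 cell cycle genes moved the same way, at 2344 to 2626 CPM in the 6 wild-type libraries over 100 CPM and 1870 to 2134 CPM in the 6 under it. So did 12 mast cell and basophil genes, led by Hdc and Cpa3 and with Mcpt4 and Tpsab1 at 0 in all libraries, at 639 to 688 against 499 to 597 CPM. The part of either list in the member levels was not tested. In the libraries labelled Irf5-/- the median member differed by 0.01 between the classes.

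**Figure D2:**
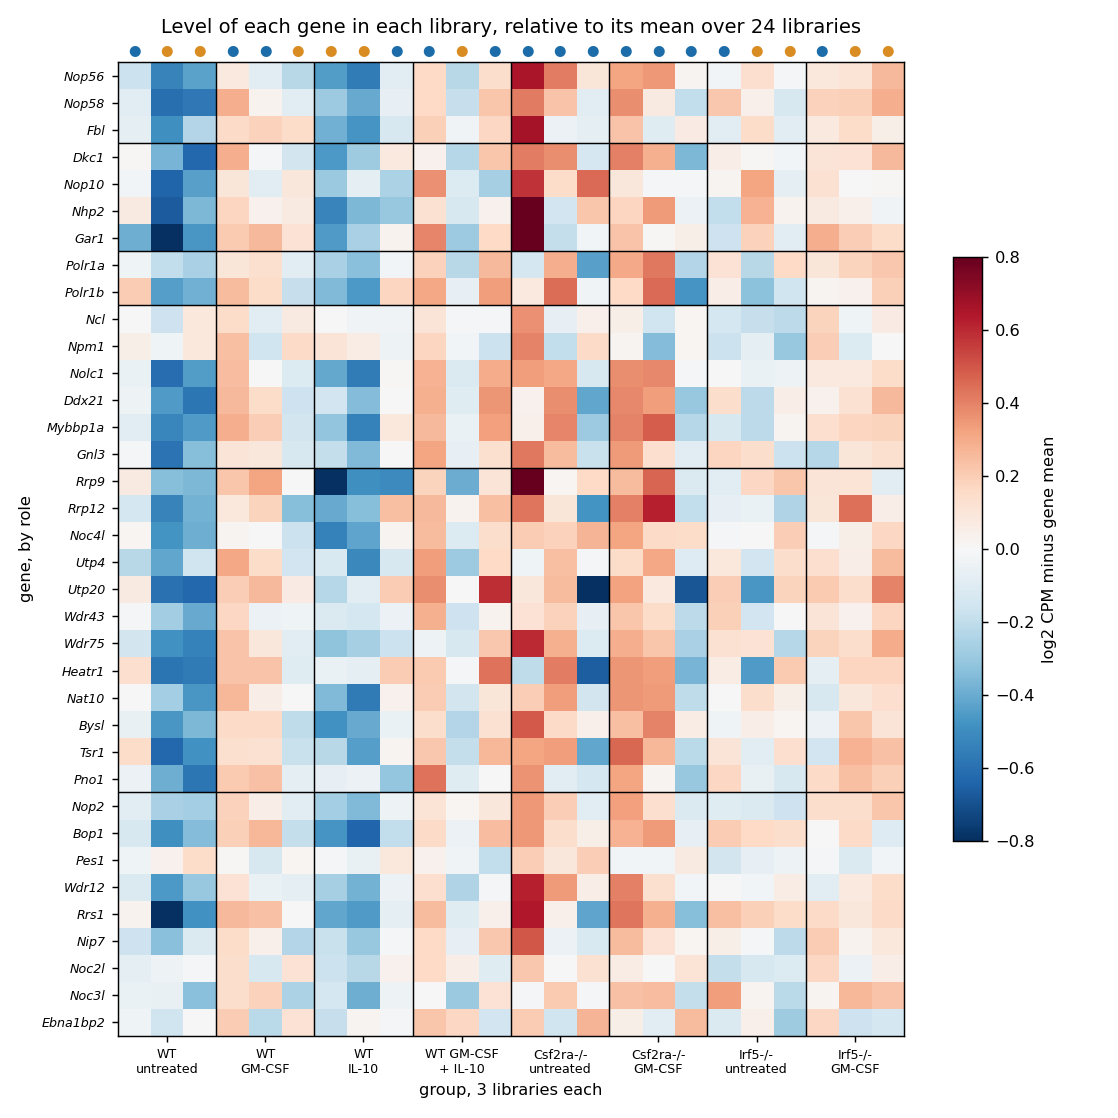
Log2 CPM of each member in each library minus the gene's mean over the 24 libraries, with genes in rows by role and libraries in columns by group; colours are capped at 0.8 either way, and the dots above the columns mark a Y-linked sum over or under 100 CPM. Most rows share their low columns, wild-type untreated replicates 2 and 3 and wild-type IL-10 replicates 1 and 2. Npm1, Ncl, Pes1, Noc2l and Ebna1bp2 have the narrowest spans between group means (0.22 to 0.30), although single libraries of Npm1 run from 291 to 487 CPM.

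GM-CSF in wild-type cells went with small positive differences across nearly the whole module, none of which passed the test. Of the 36 members, 35 had a positive log2 fold change (97.2%, against 48.5% of all tested genes), with a median of 0.34 against -0.01 over all genes. The 3 box C/D core proteins Nop56, Nop58 and Fbl lay between 0.30 and 0.48, the 4 box H/ACA core proteins (the pseudouridine synthase Dkc1 with Nop10, Nhp2 and Gar1) between 0.36 and 0.74, and the 12 small-subunit factors between 0.22 and 0.52. The 9 large-subunit factors had the lowest median of the roles, 0.20, and included the only negative member, Pes1 at -0.09. By edgeR with Benjamini-Hochberg adjustment over all tested genes 0 members were called, where 0.555% of tested genes were, and limma-voom and DESeq2 also called 0. At an unadjusted edgeR p under 0.05 there were 14 members (38.9%), against 6.27% of all tested genes. That count rested on single libraries: it was 4 without untreated replicate 2 (3.54% of tested genes) or without GM-CSF replicate 1 (4.47%), 5 without untreated replicate 3 (4.08%), 8 without GM-CSF replicate 2 (4.99%) and 27 without untreated replicate 1 (9.93%). Within libraries over 100 CPM it was 0 (1.18% of tested genes) with a median of 0.16, and within those under it 17 (9.01%) with a median of 0.31.

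The 3 smallest p-values belonged to Gar1, Bop1 and Nop58. Gar1 was at 10.3, 7.49 and 9.72 CPM in untreated wild type and at 15.5, 16.1 and 14.5 CPM with GM-CSF. These groups did not overlap, and the log2 fold change was 0.74 ± 0.22 (SE, adjusted p = 0.2 by edgeR). Bop1, the scaffold of the complex with Pes1 and Wdr12 that processes large-subunit rRNA, was at 31.95, 24.9 and 27.4 CPM without GM-CSF against 39.9, 41.9 and 30.5 CPM with it, a difference of 0.41 ± 0.14 on the log2 scale. Nop58 had 44.8, 31.3 and 31.9 CPM without it against 58.1, 48.3 and 44.5 CPM with it, a difference of 0.48 ± 0.17. For both, untreated replicate 1, the library of that group over 100 CPM in Y-linked genes, reached into the GM-CSF range. Members whose libraries were all higher with GM-CSF numbered 5 (13.9%), namely Gar1, Wdr75, Fbl, Utp4 and Wdr12, against 6.90% of tested genes.

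The same step in cells that also received IL-10 again gave mostly positive differences. It shares no library with the first but has the same uneven split of classes by Y-linked sum. There 34 of 36 members were positive (50.8% of all tested genes), the median was 0.32, and Pes1 and Npm1 were the exceptions. None was called by edgeR (0.858% of tested genes were), and 10 had an unadjusted p under 0.05 (9.63% of tested genes did). Limma-voom called 0 and DESeq2 1, Bop1 (1.17% of tested genes were called by DESeq2). The 10 became 4 without IL-10 replicate 1 (5.14% of tested genes) or 2 (5.80%), 5 without replicate 1 of both cytokines (7.17%), 6 without replicate 3 of both (6.62%), 17 without IL-10 replicate 3 and 18 without replicate 2 of both (12% of tested genes each). Within libraries over 100 CPM it was 0 (1.57%) with a median of 0.22, and within those under it 8 (12.1%) with a median of 0.17. Bop1 had 25.2, 22.5 and 30.5 CPM under IL-10 alone against 38.8, 33.8 and 41.4 CPM under both cytokines. The groups did not overlap, with a log2 fold change of 0.55 ± 0.14 (adjusted p = 0.07 by edgeR). Rrp9, the protein specific to the U3 snoRNP, had 9.97, 13.4 and 13.3 CPM under IL-10 alone against 21.4, 14.3 and 20.3 CPM under both, also without overlap, at 0.62 ± 0.21. In all, 6 members were higher without overlap (16.7%, against 9.24% of tested genes). Noc4l, a small-subunit assembly factor, was at 27.9, 30.3 and 41.1 and 48.4, 37.7 and 44.8 CPM, at 0.40 ± 0.14, with IL-10 replicate 3 inside the range of the treated group. The difference between the 2 GM-CSF effects had a median of -0.01, with 16 of 36 members positive and 0 called by edgeR, limma-voom or DESeq2 (0 at an unadjusted p under 0.05, and 0% of tested genes called by edgeR). Its 3 smallest p-values were those of Gar1 (-0.41 ± 0.30), Noc4l (0.18 ± 0.19) and Rrp9 (0.24 ± 0.30). Its median was 0.04 within libraries over 100 CPM and -0.11 under it. Gar1, the first of them, was at 9.84, 11.2 and 13.7 CPM with IL-10 alone against 17.6, 10.98 and 15.04 CPM with both cytokines, with overlap.

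Averaging the GM-CSF effects without and with IL-10 used 6 libraries a side, with the same uneven split of classes, and was added after the separate results had been seen. Bop1 (0.48 on the log2 scale), the rRNA methyltransferase Fbl (0.43) and the snoRNP chaperone Nolc1 (0.43) were called higher by edgeR, at adjusted p = 0.0066, 0.034 and 0.046, where 2.54% of tested genes were called. Of the 36 members 27 had an unadjusted p under 0.05, against 15.7% of tested genes, and 17 did (11.1%) without untreated replicate 2. Fbl was at 33.98, 25.6 and 30.6 CPM untreated, 27.5, 25.9 and 32.9 with IL-10, 39.95, 40.8 and 39.7 with GM-CSF and 40.9, 35.2 and 40.3 with both. Its 6 libraries with GM-CSF were all above the 6 without. When the Y-linked level entered the fit, Bop1 alone was called (adjusted p = 0.011; 2.15% of tested genes). Within the libraries over 100 CPM 0 members were called (0.0803% of tested genes) and the median was 0.19 (35 of 36 positive). Within those under it 5 were called (3.27% of tested genes) with a median of 0.26 (34 of 36 positive). The count without 1 library at a time ranged from 1 to 10, and the shares of all tested genes in those fits are not given here.

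**Figure D3:**
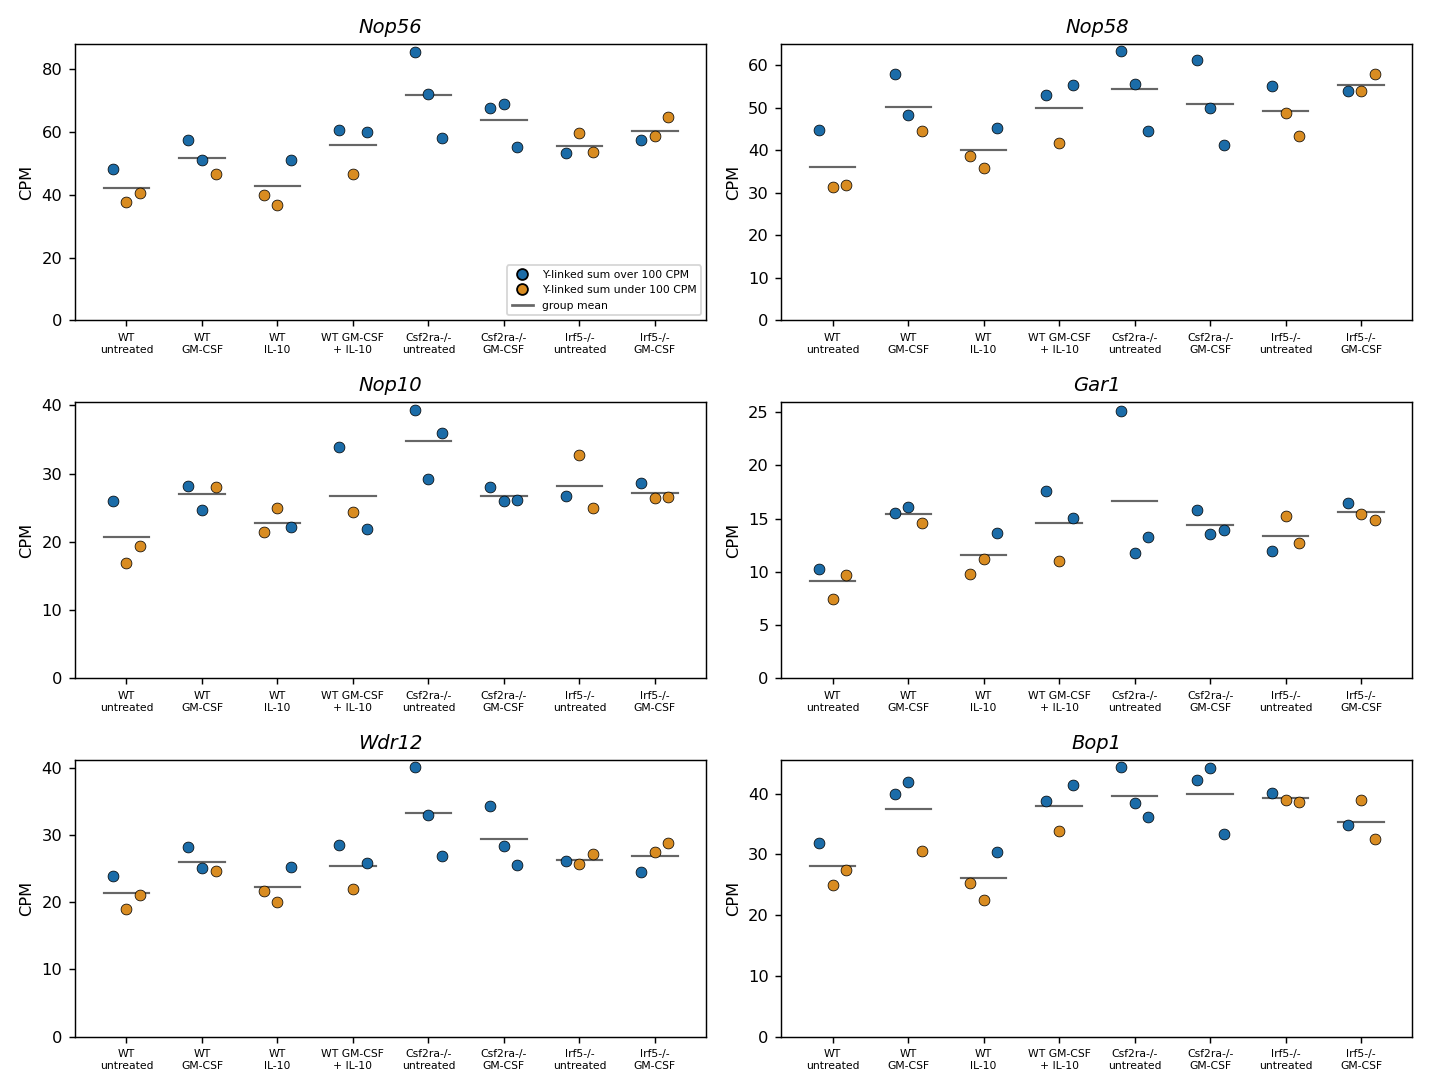
CPM per library of members named in the comparisons, for Nop56, Nop58, Nop10, Gar1, Wdr12 and Bop1, by group; each point is 1 library, lines are group means and colours mark a Y-linked sum over or under 100 CPM. In each of the 6 panels the highest point belongs to untreated Csf2ra-/- replicate 1 and the lowest to an untreated or IL-10 wild-type library.

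IL-10 came with small differences in both directions. The median member differed by 0.03 with 23 of 36 positive, and IL-10 on top of GM-CSF gave a median of 0.00 with 17 of 36 positive. In both comparisons edgeR, limma-voom and DESeq2 called 0 members, 0 had an unadjusted p under 0.05, and edgeR called 0.0505% of tested genes. Within libraries over and under 100 CPM the medians were 0.0031 and 0.05 for IL-10 alone and 0.02 and -0.05 on top of GM-CSF. Rrp9 was the only member whose libraries did not overlap with IL-10 alone, at 19.9, 14.9 and 14.7 CPM against 9.97, 13.4 and 13.3 CPM, a log2 fold change of -0.44 ± 0.21 (adjusted p = 0.999 by edgeR; 7.72% of tested genes were lower without overlap). Gar1 (0.33 ± 0.22), at 10.3, 7.49 and 9.72 CPM against 9.84, 11.2 and 13.7 CPM, followed by p-value. The small-subunit factor Heatr1 (0.32 ± 0.24) came next, at 30.97, 18.9 and 19.1 CPM against 27.2, 26.7 and 32.5 CPM. Both overlapped. With GM-CSF present the smallest p-values were those of Noc4l (0.15 ± 0.14), Rrp9 (-0.20 ± 0.21) and Rrp12 (0.18 ± 0.22), all with overlap. Without and with IL-10, Noc4l was at 41.3, 40.6 and 36.03 against 48.4, 37.7 and 44.8 CPM, Rrp9 at 22.1, 23.5 and 18.8 against 21.4, 14.3 and 20.3 CPM and Rrp12 at 15.4, 16.5 and 11.5 against 17.5, 14.8 and 17.2 CPM.

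In Csf2ra-/- cells GM-CSF came with no shared direction of the module. The median was -0.02, 15 of 36 members were positive, and edgeR, limma-voom and DESeq2 called 0 members and 0 genes of any kind (0%). Nop10 alone had an unadjusted p under 0.05 by edgeR (4.47% of tested genes did). Nop10, the smallest box H/ACA protein, had 39.4, 29.2 and 36.02 CPM without GM-CSF against 27.99, 26.03 and 26.1 CPM with it, all lower, with a log2 fold change of -0.38 ± 0.16 (adjusted p = 0.999 by edgeR). Pes1 was also lower in all libraries (-0.15 ± 0.08), at 124, 115 and 124 CPM against 106, 106 and 113 CPM, as 2% of tested genes were. Npm1 followed at -0.23 ± 0.14, with 487, 323 and 412 CPM against 375, 291 and 374 CPM and overlap. All 6 libraries here are over 100 CPM in Y-linked genes. Set against wild type, the difference of the GM-CSF effects was negative in 35 of 36 members, with a median of -0.32 against -0.01 over all genes. It was also negative in 24 of 24 cell cycle genes (median -0.24), 119 of 132 other ribosome biogenesis genes (-0.19) and 76 of 79 ribosomal protein genes (-0.17). For RNA polymerase III genes it was negative in 11 of 20, and for monocyte and macrophage genes in 4 of 17. The part of these lists in the member differences was not tested. No member was called by edgeR, limma-voom or DESeq2 (0.0589% of tested genes were by edgeR), and 8 members (22.2%) had an unadjusted p under 0.05 against 5.82% of tested genes. Leaving out 1 library took these 8 to between 2 (without Csf2ra-/- untreated replicate 1, 3.12% of tested genes) and 16 (without wild-type untreated replicate 1, 7.55%, or Csf2ra-/- untreated replicate 3, 9.90%). It was 3 or 4 without wild-type untreated replicate 2 (3) or 3 (4), wild-type GM-CSF replicate 1 (4) or Csf2ra-/- GM-CSF replicate 3 (3). The smallest p-values were those of Nop10 (-0.75 ± 0.22, adjusted p = 0.56 by edgeR), Gar1 (-0.92 ± 0.30) and the small-subunit factor Wdr75 (-0.63 ± 0.24). With GM-CSF, Gar1 was at 15.8, 13.5 and 13.9 CPM in Csf2ra-/- cells, and Wdr75 at 17.9, 16.3 and 14.5 CPM in wild type and 18.7, 17.8 and 12.8 CPM in Csf2ra-/- cells; Nop10 was at 28.1, 24.7 and 28.1 CPM in wild type. Within libraries over 100 CPM the median difference was -0.19 and 0 members had an unadjusted p under 0.05 (0.971% of tested genes).

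Untreated Csf2ra-/- libraries had higher fitted levels of the module than untreated wild-type libraries. This was the one comparison of the study's groups in which members passed the test. The member means overlapped, with wild-type replicate 1 at 4.998 and Csf2ra-/- replicate 3 at 4.95. All 3 Csf2ra-/- libraries but only 1 of 3 wild-type libraries were over 100 CPM in Y-linked genes, so genotype and class cannot be fully told apart. All 36 log2 fold changes were positive (50.4% of all tested genes), with a median of 0.38. By edgeR 11 members were called higher and 0 lower, which is 30.6% of the members. Over all tested genes 5.52% were called higher and 10.8% in either direction. An unadjusted p under 0.05 was found for 22 members against 27.9% of tested genes, and 12 members were higher in every library against 10.3%. By role, the called members were 2 of 3 box C/D core proteins (Nop56 and Nop58) and 3 of 4 box H/ACA core proteins (Nop10, Nhp2 and Gar1). Among small-subunit factors 3 of 12 were called (Wdr75, Noc4l and Bysl), among large-subunit factors 2 of 9 (Wdr12 and Bop1), among the abundant nucleolar proteins 1 of 6 (Nolc1), and of the RNA polymerase I subunits 0 of 2, with Polr1a and Polr1b at 0.10 to 0.35.

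Nop56 (chr2:130274430-130279313, plus strand) had the smallest p-value of the module. It was at 48.2, 37.5 and 40.5 CPM in untreated wild type and 85.6, 72.1 and 58.1 CPM in untreated Csf2ra-/- cells, 1.70-fold higher (log2 0.77 ± 0.15, adjusted p = 0.0029 by edgeR). The groups did not overlap. Its partner Nop58 (chr1:59684971-59719044, plus strand) was at 44.8, 31.3 and 31.9 against 63.4, 55.6 and 44.5 CPM, with wild-type replicate 1 just above Csf2ra-/- replicate 3 (log2 0.59 ± 0.17, adjusted p = 0.028). Both genes host box C/D snoRNAs (Snord110 and Snord11 above), the class of RNA that their proteins bind.

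Of the box H/ACA proteins, Nop10 (chr2:112261926-112263269, plus strand) was at 25.9, 16.9 and 19.4 CPM in wild type and 39.4, 29.2 and 36.02 CPM in Csf2ra-/- cells, without overlap (log2 0.74 ± 0.16, adjusted p = 0.0071 by edgeR). Gar1 (chr3:129824912-129831396, minus strand) was at 10.3, 7.49 and 9.72 against 25.04, 11.8 and 13.2 CPM, without overlap and with Csf2ra-/- replicate 1 well above the other 2 (log2 0.83 ± 0.22, adjusted p = 0.021). Nhp2 (chr11:51619735-51623714, plus strand) was at 36.5, 21.96 and 27.1 against 75.5, 31.3 and 40.6 CPM and overlapped (log2 0.76 ± 0.22). The fourth protein, Dkc1, did not pass, at 37.5, 28.8 and 24.2 against 49.6, 48.2 and 33.9 CPM.

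Among processing factors, Wdr12 (chr1:60069785-60098645, minus strand) was at 23.98, 18.9 and 21.1 CPM in wild type and 40.1, 32.98 and 26.97 CPM in Csf2ra-/- cells (log2 0.63 ± 0.14, adjusted p = 0.0089 by edgeR). Its complex partner Bop1 (chr15:76452989-76477277, minus strand) was at 31.95, 24.9 and 27.4 against 44.4, 38.5 and 36.1 CPM (log2 0.49 ± 0.14). The groups overlapped for neither, while the third partner, Pes1, was at 105, 111 and 119 against 124, 115 and 124 CPM and did not pass. Wdr75 (chr1:45795166-45823619, plus strand), which joins the rRNA precursor early, was at 13.9, 10.9 and 10.5 against 23.2, 18.7 and 14.2 CPM (log2 0.65 ± 0.17). Noc4l (chr5:110648418-110653417, minus strand) was at 41.1, 29.2 and 30.96 against 46.8, 46.1 and 49.1 CPM (log2 0.48 ± 0.14). Both were higher in every Csf2ra-/- library. The others called were Bysl (0.51 ± 0.15), a late small-subunit factor, and Nolc1 (0.53 ± 0.16), of which Bysl alone did not overlap. The exons of Bysl share 9.37% of their length with Ccnd3 on the opposite strand, so its counts are uncertain if strand was not used.

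**Figure D4:**
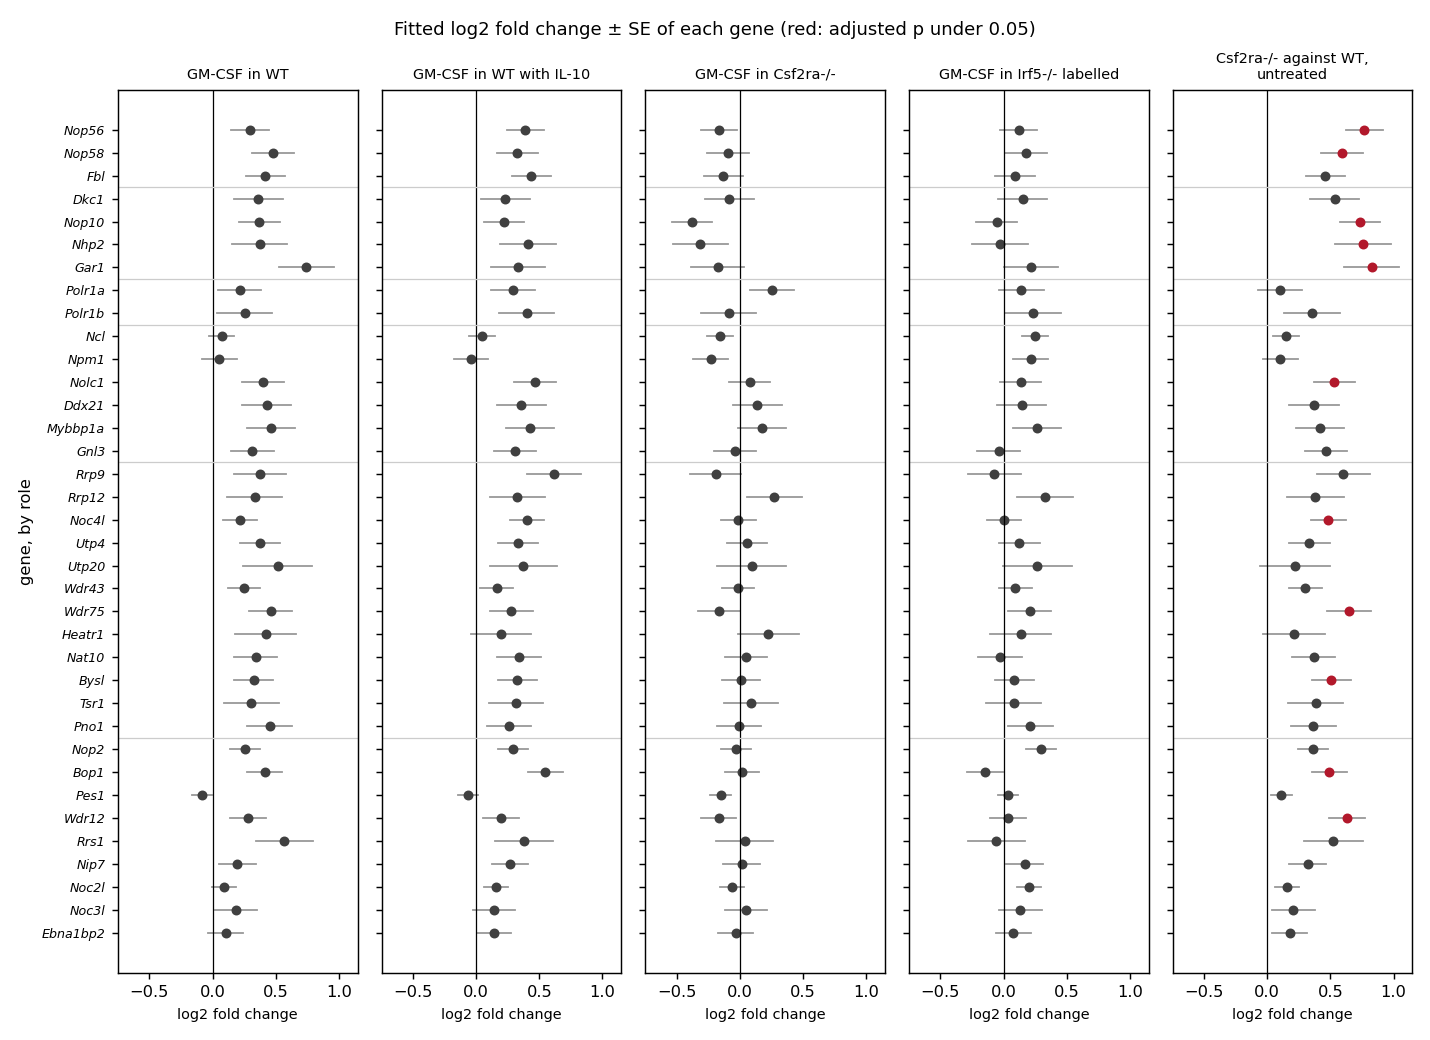
Log2 fold change of each member in 5 comparisons, with genes in rows by role; bars are ± SE from edgeR and red points mark an adjusted p under 0.05. Of these 5 panels, red points appear only in untreated Csf2ra-/- against wild type, where all 36 members are positive.

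The number of members called depended on single libraries and on the fit. DESeq2 called 14 members, the 11 among them, and 13.5% of tested genes, and limma-voom called 7 members and 8.51%. A fit of the 2 compared groups alone called 0 (1.75% of tested genes; adjusted p for Nop56 of 0.069 by edgeR), and 15 (41.7%) had an unadjusted p under 0.05 against 15.7% of tested genes. Without Csf2ra-/- untreated replicate 1 the count fell to 2 (Nop56 and Nop10; 2.97% of tested genes), without wild-type untreated replicate 2 to 1 (Nop56; 2.41%) and without wild-type untreated replicate 3 to 3 (Nop56, Nop10 and Wdr12; 4.31%). It was 17 without wild-type replicate 1 (11.9% of tested genes) and 18 without Csf2ra-/- replicate 3 (15.9%). Adding the Y-linked level to the fit left 5 (Nop56, Nop10, Wdr12, Gar1 and Wdr75; 6.34% of tested genes). Among libraries over 100 CPM, where 1 wild-type library faces 3 and is assumed to vary like the other groups, 0 members were called (0.281% of tested genes), 31 of 36 were positive, the median was 0.19 and Nop56 was at 0.57 with an adjusted p of 0.88 by edgeR.

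**Figure D5:**
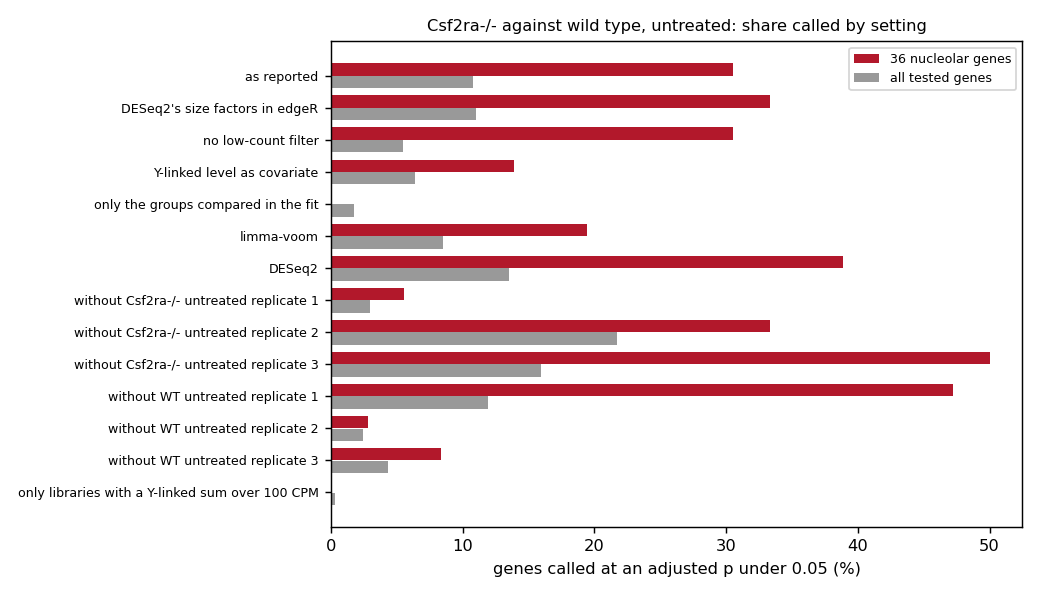
Share in percent of the 36 members (red) and of all tested genes (grey) called at an adjusted p under 0.05 in untreated Csf2ra-/- against wild type, with 1 pair of bars for each setting. The members called run from 0 with only the compared groups, or only libraries over 100 CPM, to 18 of 36 without Csf2ra-/- untreated replicate 3.

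Other gene lists moved in the same comparison, and their part in the member differences was not tested. Of 24 cell cycle genes 19 were called higher and 0 lower, with a median of 0.61, and their sum was 2576, 1941 and 1870 CPM in untreated wild type against 3516, 3470 and 2573 CPM in Csf2ra-/- cells. Of 17 tested monocyte and macrophage genes 11 were lower with a median of -1.89, although their sum, led by Ly6c2, Lyz2 and Csf1r, was 1904 to 2012 against 1719 to 2349 CPM, and Marco was at 0 in all libraries. Of 15 neutrophil genes 6 were lower with a median of -0.59. Mast cell and basophil genes had 2 of 9 higher and summed to 499.6 to 640.4 CPM in wild type against 692 to 913 CPM. Erythroid genes had 2 of 5 higher with a median of 0.55, led by Tfrc and Hbb-bt, with Hba-a2 and Slc4a1 at 0 in all libraries, and summed to 316 to 338 against 372 to 409 CPM. Sums also did not overlap for progenitor genes (389 to 452 against 468 to 528 CPM, with 1 of 8 higher and 1 lower) and lymphoid and dendritic genes (80.9 to 109.6 against 126 to 144 CPM, with 1 of 6 higher and 2 lower, and Ncr1 and Xcr1 at 0). Of 12 eosinophil genes 2 were higher and 3 lower, with sums of 80346 to 85391 against 86795 to 116035 CPM. Of 6 stromal genes 0 were higher and 1 lower, with sums that overlapped.

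Other biogenesis genes and ribosomal protein genes were also mostly positive in untreated Csf2ra-/- against wild type. For the other biogenesis genes the share called higher was near that of all genes. Of 132 other biogenesis genes 10 (7.58%, against 5.52% of tested genes) were called higher and 0 lower, with a median of 0.20 and 114 positive. The smallest p-values were those of Nop16 (0.62 ± 0.15), a nucleolar large-subunit factor, the RNA exosome subunits Exosc2 (0.73 ± 0.19) and Exosc1 (0.55 ± 0.14), the large-subunit factor Mrto4 (0.71 ± 0.19) and Ruvbl1 (0.54 ± 0.14), an ATPase that helps to assemble snoRNPs. Of the 79 ribosomal protein genes 78 were positive (50.4% of all tested genes were), with a median of 0.24. Their sum was 50624, 49453 and 59138 CPM in wild type and 75110, 45127 and 66278 CPM in Csf2ra-/- cells, with overlap. Of 20 RNA polymerase III genes 0 were called by edgeR, with a median of -0.01. In the MYC network 7 of 11 tested genes were negative, with a median of -0.21, and 1 was called in each direction. Mycn was higher at 2.09, 1.46 and 0.748 against 3.45, 2.36 and 3.19 CPM (1.03 ± 0.31) and Mxd1, a repressor that competes with MYC, was lower at 508, 625 and 613 against 395, 445 and 439 CPM (-0.45 ± 0.11). Myc itself was at 68.3, 54.6 and 49.1 against 71.1, 66.5 and 84.7 CPM and did not pass (0.37 ± 0.14, adjusted p = 0.086 by edgeR).

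For the GM-CSF effect in wild type, the other biogenesis genes had 105 of 132 positive with a median of 0.13 and 0 called, ribosomal protein genes 11 of 79 positive with a median of -0.06, and RNA polymerase III genes 11 of 20 positive. Cell cycle genes were positive in 24 of 24 with a median of 0.15 and 0 called, and their sum was 2105 to 2626 CPM with GM-CSF, overlapping the untreated range. Monocyte and macrophage genes were negative in 13 of 17 with a median of -0.43 and 1 called lower, and summed to 1722 to 1896 CPM with GM-CSF, below untreated. With IL-10 present, cell cycle genes were positive in 22 of 24 (median 0.08) and monocyte and macrophage genes negative in 14 of 17 (median -0.32). The part of these lists in the member differences was not tested. Myc was at 70.8, 61.03 and 71.9 CPM with GM-CSF (0.24 ± 0.14, adjusted p = 0.85 by edgeR). With IL-10 present, Mycn was called higher with GM-CSF, at 2.01, 1.07 and 1.55 against 3.63, 3.49 and 3.93 CPM (1.25 ± 0.30, adjusted p = 0.046 by edgeR), and Myc was at 50.05, 47.2 and 58.9 against 84.4, 67.1 and 61.8 CPM (0.45 ± 0.14, adjusted p = 0.19).

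With GM-CSF in both genotypes, the differences between Csf2ra-/- and wild-type cells were small. The median was 0.06 (0.0029 within libraries over 100 CPM), 28 of 36 members were positive, and edgeR, limma-voom and DESeq2 called 0 members, while 3.79% of tested genes were called by edgeR. Nop56, the single member with an unadjusted p under 0.05 (14.3% of tested genes had one), was at 57.4, 51.2 and 46.6 CPM in wild type and 67.5, 68.99 and 55.2 CPM in Csf2ra-/- cells, a log2 difference of 0.30 ± 0.15 (adjusted p = 0.35 by edgeR). The groups overlapped. Noc4l (0.26 ± 0.13), at 41.3, 40.6 and 36.03 against 50.6, 45.1 and 45.0 CPM, was higher without overlap, as were 8.07% of tested genes. Rrp12, a factor of subunit export, overlapped at 15.4, 16.5 and 11.5 against 19.2, 22.4 and 12.7 CPM (0.32 ± 0.22). The untreated wild-type libraries stand in both the GM-CSF effect and the genotype difference above, so these comparisons are not independent of each other.

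In the libraries labelled Irf5-/- GM-CSF gave 29 of 36 positive members (51.2% of all tested genes) and a median of 0.13, which was 0.05 within libraries over 100 CPM and 0.17 under it. None was called by edgeR, limma-voom or DESeq2 (0.353% of tested genes were by edgeR), and 3 had an unadjusted p under 0.05 (5.82% of tested genes did). The rRNA methyltransferase Nop2 had 33.3, 32.7 and 31.7 CPM without GM-CSF against 39.2, 39.1 and 41.4 CPM with it, all higher (log2 0.30 ± 0.12, adjusted p = 0.72 by edgeR). Ncl was at 423, 411 and 403 CPM against 527, 456 and 489 CPM, again all higher (log2 0.25 ± 0.10), and Noc2l followed at 0.20 ± 0.09, with 66.2, 69.3 and 70.2 CPM against 84.7, 73.3 and 78.5 CPM. In all, 8 members (22.2%) were higher in every library against 8.73% of tested genes. The difference from the wild-type effect had a median of -0.24 with 5 of 36 positive, 0 called by edgeR, limma-voom or DESeq2 (0% of tested genes by edgeR) and 1 at an unadjusted p under 0.05 (3.16% of tested genes). That member was Bop1 (-0.56 ± 0.20, adjusted p = 0.987 by edgeR), ahead of Rrs1 (-0.63 ± 0.32) and Nop10 (-0.43 ± 0.23). Without and with GM-CSF in the libraries labelled Irf5-/-, Bop1 was at 40.2, 38.97 and 38.6 against 34.9, 38.9 and 32.5 CPM and Nop10 at 26.7, 32.8 and 25.03 against 28.6, 26.4 and 26.5 CPM. Rrs1, a large-subunit factor, was at 21.1, 20.4 and 19.8 against 19.8, 19.1 and 19.9 CPM there and at 18.2, 9.47 and 12.8 against 21.4, 21.1 and 17.9 CPM in wild type. The median of this difference was -0.13 within libraries over 100 CPM and -0.14 under it.

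Untreated libraries labelled Irf5-/- lay above untreated wild type in 31 of 36 members, with a median of 0.30 against -0.01 over all genes, and edgeR, limma-voom and DESeq2 called 0 of them (0.0337% of tested genes were called by edgeR). An unadjusted p under 0.05 was found for 9 members (25.0%) and 14.0% of tested genes. These 9 became 1 without wild-type replicate 2 (6.52% of tested genes), 5 without wild-type replicate 3 (9.08%), 6 without Irf5-/- labelled replicate 1 (10.6%) and 20 without wild-type replicate 1 (17.2%). A fit of the 2 groups alone called 2 members (5.56%), near the 4.95% of tested genes it called. Cell cycle genes were positive in 24 of 24 with a median of 0.30 and had overlapping sums, 1870 to 2576 CPM in wild type against 2532 to 2660 CPM. Monocyte and macrophage genes were negative in 14 of 17 with a median of -0.49, with overlapping sums. Neither list had a gene called, and their part in the member differences was not tested. Bop1 was at 31.95, 24.9 and 27.4 CPM in wild type and 40.2, 38.97 and 38.6 CPM in the libraries labelled Irf5-/-, without overlap (log2 0.48 ± 0.14, adjusted p = 0.28 by edgeR). Nop10 (0.44 ± 0.16) came next, at 25.9, 16.9 and 19.4 against 26.7, 32.8 and 25.03 CPM with overlap. Nop56 (0.40 ± 0.15) did not overlap, at 48.2, 37.5 and 40.5 against 53.4, 59.6 and 53.7 CPM. In all, 7 members were higher without overlap (19.4%, against 11.4% of tested genes) and 3, Npm1, Pes1 and Noc2l, were lower without overlap (8.33%, against 14.6%). The 2 most abundant members went the other way without passing, Npm1 at 383, 361 and 393 against 329, 352 and 301 CPM and Ncl at 467, 415 and 494 against 423, 411 and 403 CPM. The median was unlike in the 2 classes of library. With 2 libraries a side under 100 CPM it was 0.45 and 20 members were called, where 17.1% of tested genes were called. With 1 library a side over 100 CPM it was 0.050. A pair of single libraries cannot show that a difference is absent, and the gap between the classes was not tested. With GM-CSF in both, the median was 0.04 with 24 of 36 positive (-0.04 within libraries over 100 CPM and 0.27 under it), and 0 members were called by edgeR, limma-voom or DESeq2, with 0 at an unadjusted p under 0.05 and 0.0337% of tested genes called. Nop56 (0.22 ± 0.15), at 57.4, 51.2 and 46.6 against 57.6, 58.7 and 64.9 CPM, did not overlap there (3.25% of tested genes were higher without overlap), nor did Fbl, which was lower (3.40% of tested genes were lower without overlap). Nop2 (0.11 ± 0.12), at 40.4, 36.8 and 33.4 against 39.2, 39.1 and 41.4 CPM, and Rrp12 (0.21 ± 0.22), at 15.4, 16.5 and 11.5 against 15.6, 19.8 and 15.1 CPM, overlapped.

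The members differed in how far they moved. Between the highest and the lowest of the 8 group means, Rrp9 had the widest span at 1.01 on the log2 scale, followed by Nhp2 (0.79), Gar1 (0.79), Nop56 (0.76) and Nop10 (0.76). The narrowest were Ebna1bp2 (0.22), Pes1 (0.25), Noc2l (0.25), Ncl (0.29) and Npm1 (0.30). Thus 4 of the 5 most abundant members per kilobase were among those with the narrowest span of group means. The lowest group was untreated wild type for 20 members, wild-type IL-10 for 11 and untreated libraries labelled Irf5-/- for 5. The highest was untreated Csf2ra-/- for 16 and Csf2ra-/- with GM-CSF for 9. Within groups, after removing group means, pairs of members had a median correlation of 0.57 over 24 libraries (630 pairs, 84.9% positive), against 0.00 over all pairs of tested genes. Nop56 had the highest mean correlation with the other members (0.64), and Pes1 (-0.10) and Ebna1bp2 (-0.08) the lowest. Pairs in one library share its depth and scaling, and these values are descriptions. The split by Y-linked sum within groups was not removed, so these correlations include it.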

How the data were processed

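The members and gene lists were chosen with earlier results of these data known. RNA was taken from cultured bone marrow eosinophils and made into stranded mRNA libraries, per the labels' protocols. The deposited tables hold 1 read count per gene and library, and per the submitters' processing notes the reads were aligned with STAR to GRCm38.p6 and counted with featureCounts; the strand setting is not given in the sources used here. Symbols and positions came from GENCODE release 21, and 111 genes without a symbol held 0.0385% of the counts. Counts were scaled by TMM, filtered with filterByExpr and fitted in edgeR 4.0.16 (R 4.3.3) with the robust quasi-likelihood method, as 8 group means over 24 libraries; the biological coefficient of variation was 14.1%. Genes were called at a Benjamini-Hochberg adjusted p under 0.05 in 13 comparisons. Log2 fold changes are given ± SE. Log2 CPM values carry a prior count of 2. The fit was run on simulated counts in which each gene varied independently. That simulation held neither the correlation between members nor the split by Y-linked sum, so it does not check the member counts. Alternatives were DESeq2 1.42.0, limma-voom (limma 3.58.1), other scaling, no filter, a Y-linked covariate, only the groups compared, and leaving out each library. The classes by Y-linked sum and the averaged GM-CSF effect were chosen after seeing the data. Replicates of a group differed by more than sampling noise in all 24 pairs (chi-square per degree of freedom 3.49 to 66.5). By rule, the called members with the smallest p (at most 8 per comparison), or else those with the 3 smallest p, are named with values in every library; members named outside it, among them Bysl, Nhp2, Nolc1, Dkc1, Pes1, Npm1 and Ncl, were named after their values were seen. The calls of single ribosomal protein genes are not reported here.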

Additional observations from a re-analysis of the deposited data

How the results depend on the processing

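No paired analysis was possible because the labels give no replicate numbers that match libraries across groups. In untreated Csf2ra-/- against wild type, where 11 members were called, the count was 12 with DESeq2's size factors, 11 with no filter, 5 with the Y-linked covariate, 7 with limma-voom, 14 with DESeq2 and 0 both with only the groups compared and in libraries over 100 CPM of Y-linked sum, where the median was 0.19. Leaving out each library gave 1 to 18 members and medians of 0.31 to 0.56. With GM-CSF in wild type the median in libraries over 100 CPM was 0.16. With IL-10 present DESeq2 called 1 member (1.17% of tested genes), and leaving out each library gave 0 to 2 (0.83% of tested genes where 2 were called). For untreated libraries labelled Irf5-/- against wild type, the fit of only those groups called 2 members (4.95% of tested genes), libraries under 100 CPM 20, the median over 100 CPM was 0.050, and leaving out each library gave medians of 0.21 to 0.46. With GM-CSF the same comparison had a median of 0.27 under 100 CPM. The difference of GM-CSF effects between Csf2ra-/- and wild type had medians of -0.48 to -0.21 when each library was left out. The averaged GM-CSF effect called 3 members (2.54% of tested genes), and 1 with the Y-linked covariate (2.15%). It called 9 with DESeq2 and 1 to 10 when each library was left out. For these last settings the shares of all tested genes are not given here, so their counts have no background beside them. Signs turned for Rrp12 in the comparison labelled Irf5-/- with GM-CSF (-0.038 over 100 CPM), for Nop10 in the difference of effects between libraries labelled Irf5-/- and wild type (0.071 over 100 CPM) and for Rrp9 in the difference of effects by IL-10 (-0.058 under 100 CPM). None of these 3 was called, and the causes were not tested. Where a class leaves 1 library in an arm, that library is assumed to vary like the other groups.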
